A study of Homo sapiens with 21 samples.

Results

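The genes described here encode the enzymes that make cholesterol and fatty acids, the transcription factors that switch these enzymes on, and their partners in sterol handling. The list names 30 genes, which are known as targets or parts of the sterol regulatory element binding protein (SREBP) pathway, and they were grouped by function. Of the 30, 29 had a row in the count table of 57820 genes, and ACACA was not analysed here. The 29 comprised 18 genes of cholesterol synthesis, 7 of fatty acid synthesis, 3 regulators and 1 sterol carrier. All 29 averaged 1 count per library or more, which was the filter on low counts, and were tested among 30549 genes.

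Cholesterol is built from acetyl-CoA through mevalonate, isoprenoid phosphates, squalene and lanosterol, and fatty acids are built from the same acetyl-CoA and then elongated and desaturated. SREBP2, the product of SREBF2, mainly drives the cholesterol enzymes, and SREBP1, the product of SREBF1, mainly drives the fatty acid enzymes. Both are held as precursors in the endoplasmic reticulum by INSIG proteins when sterols are plentiful, and are cut and sent to the nucleus when sterols are scarce. INSIG1 is itself a target of SREBP, which closes a feedback loop.

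Transcript levels were measured by RNA-seq in A673, an established Ewing sarcoma cell line that carries the EWS/FLI fusion, with the knockdown and rescue (KD/rescue) system. The study describes A673 as unusual in tolerating loss of the fusion. All cells were transduced with a retroviral shRNA on day 1 and with a retroviral cDNA or empty vector on day 5, and selection with puromycin at 2 µg/ml and hygromycin B at 400 µg/ml lasted until day 16. The 21 libraries formed 7 groups of 3. Control cells received an shRNA to luciferase and an empty vector (iLuc), so that endogenous EWS/FLI (endo-EF) remained. Every other group received an shRNA to EWS/FLI (iEF). These cells carried an empty vector (also written iEF), wildtype EWS/FLI (WT-EF), a fusion that lacks EWS (Δ22), a fusion of full length whose EWS tyrosines were changed to alanine near the N-terminus (DAF), a fusion with a shortened EWS domain (mut9), or the shortened domain with tyrosine changes (DAF-mut9). The rescue cDNAs were expressed from a retroviral vector and not from the EWSR1 promoter, and all results are from 1 cell line.

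Library totals were 32.9 to 46.2 M counts. FLI1, the 3′ partner of the fusion, was at 60.6 to 89 CPM (counts per M of library total, after TMM scaling) in iLuc and at 20 to 21.1 CPM in iEF, and the rescued groups had means of 24.5 CPM (WT-EF), 30.7 CPM (mut9), 36.3 CPM (DAF-mut9), 37 CPM (DAF) and 49.5 CPM (Δ22). WT-EF thus had the lowest FLI1 mean of the rescues, and the part of these levels in the results was not tested. The shRNA targets the 3′ untranslated region of the EWS/FLI transcript, and the rescues carry cDNA. Whole-gene FLI1 counts may therefore not measure the fusion alike in iLuc and in the rescues. Of 6 Ewing sarcoma markers, NR0B1, NKX2-2, STEAP1, CCND1 and PRKCB were counted in every library, while CD99 had 0 to 8 counts. Whether the low CD99 count reflects its expression or the way reads were assigned to genes was not tested, so it does not show that CD99 is absent. Markers of epithelium, blood and liver had 0 to 38 counts in any library. Of the muscle markers, MYOD1 had 0 to 2 counts, DES 0 to 111 and MYH3 89 to 179.

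Levels per kilobase of exon showed which of these transcripts were abundant in A673. In iEF, SCD, the stearoyl-CoA desaturase, stood highest at 44.4 CPM per kb, followed by INSIG1 at 43.9, SQLE (squalene epoxidase) at 37.4, FADS1 (the delta-5 desaturase) at 34.2 and ACLY (ATP citrate lyase) at 31.2. In iLuc, FADS1 stood highest at 93 CPM per kb, followed by SCD at 75.1, and INSIG1 was 15th of 29 at 16.5. MVK (mevalonate kinase) and CYP51A1 (lanosterol demethylase) were the lowest in both groups, at 0.865 and 0.189 CPM per kb in iEF. CYP51A1 had a mean of only 34.4 counts per library, so its level is uncertain. Exon overlaps were taken from GENCODE lifted to GRCh37. The annotation used for counting is not given and may lack some of the overlapping genes, so the effect of overlaps on these counts is not known. In GENCODE, 74.1% of the exon bases of CYP51A1 lay in other annotated genes, mostly genes on the same strand. Overlap with other exons was also large for HMGCS1 (37.7%, an antisense gene), EBP (36.4%, a gene on the same strand), ACAT2 (22.2%, mainly TCP1 on the opposite strand) and FDPS (18.6%). FDPS also has 8 named pseudogenes in the annotation, IDI1 and CYP51A1 have 3 each, HSD17B7 has 2 and SCD has 1.

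Most promoters found for these genes share a feature. RefSeq windows of 300 bases (GRCh38.p14, 250 before to 50 after a start site) were found for 26 of the 30 genes. They include ACACA and leave out ACAT2, FDFT1, SQLE and FASN. CCAAT, the letters recognised by NF-Y, a factor known to act beside SREBP, occurred on either strand in the windows of 21 of the 26 genes (80.8%), against 39.7% of all 27305 genes with a window. In FADS2 the match lay after the start site. The list was drawn from SREBP targets, so the CCAAT share is not independent of how the list was made, and the comparison genes were not matched for expression. The sterol regulatory element written as TCACNCCAC occurred in 1 of the 26 (3.85%, against 1.39% of all genes), CACGTG, an E-box, in 3 (11.5%, against 8.77%), and GGAAGGAA, a repeat of the ETS core that FLI1 binds, in 1 (3.85%, against 4.5%). Each motif was sought as spelled on both strands, and no motif contains another. A match describes the letters in the window and no binding was measured here. Below are upstream stretches of 4 genes that the results turn on, with matches in capitals (ATTGG is CCAAT on the other strand): SREBF2 because it holds the sterol regulatory element of its own pathway, INSIG1 because it moved against the enzymes, and MVD and FDPS as early enzymes with several CCAAT matches.
SREBF2 (chr22:41832957-41833018, plus strand, 148 to 87 bases before the start): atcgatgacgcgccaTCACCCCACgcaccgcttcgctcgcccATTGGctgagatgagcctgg
INSIG1 (chr7:155297693-155297843, plus strand, 185 to 35 bases before the start): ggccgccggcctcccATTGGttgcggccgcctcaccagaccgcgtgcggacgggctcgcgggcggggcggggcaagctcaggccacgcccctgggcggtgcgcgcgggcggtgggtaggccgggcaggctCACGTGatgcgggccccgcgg
MVD (chr16:88663157-88663265, minus strand, 174 to 66 bases before the start): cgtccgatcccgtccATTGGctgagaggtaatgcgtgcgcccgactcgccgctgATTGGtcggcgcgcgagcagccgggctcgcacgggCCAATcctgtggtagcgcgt
FDPS (chr1:155308675-155308834, plus strand, 191 to 32 bases before the start): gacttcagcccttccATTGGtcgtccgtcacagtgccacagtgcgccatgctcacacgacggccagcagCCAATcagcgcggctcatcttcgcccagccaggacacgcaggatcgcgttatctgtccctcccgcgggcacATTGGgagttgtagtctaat
In these stretches SREBF2 and INSIG1 each hold 1 CCAAT match, and MVD and FDPS hold 3 each.

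Cells with endogenous EWS/FLI carried more transcript of most of these enzymes than depleted cells. In iLuc versus iEF, 16 of the 29 genes rose and 1, INSIG1, fell at an adjusted p-value below 0.05. Over all genes tested, 18.7% rose and 22.4% fell in this comparison. With limma on the ComBat-adjusted values 19 rose and 1 fell, and over all genes 7106 rose and 4983 fell, against 5727 and 6833 with edgeR. The median log2 fold change over the 29 genes was 0.73, against 0.0061 over all genes tested. Of the 18 cholesterol genes 9 rose and 0 fell, and of the 7 fatty acid genes 6 rose and 0 fell. In 10 of the 29 genes the 3 iLuc libraries did not overlap the 3 iEF libraries, and in the others the ranges met. The share of all genes tested with such separation was not computed, so this count cannot be called particular to the list. RNA was taken from whole cultures, so a change per cell and a change in the makeup of the culture cannot be told apart.

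**Figure D1:**
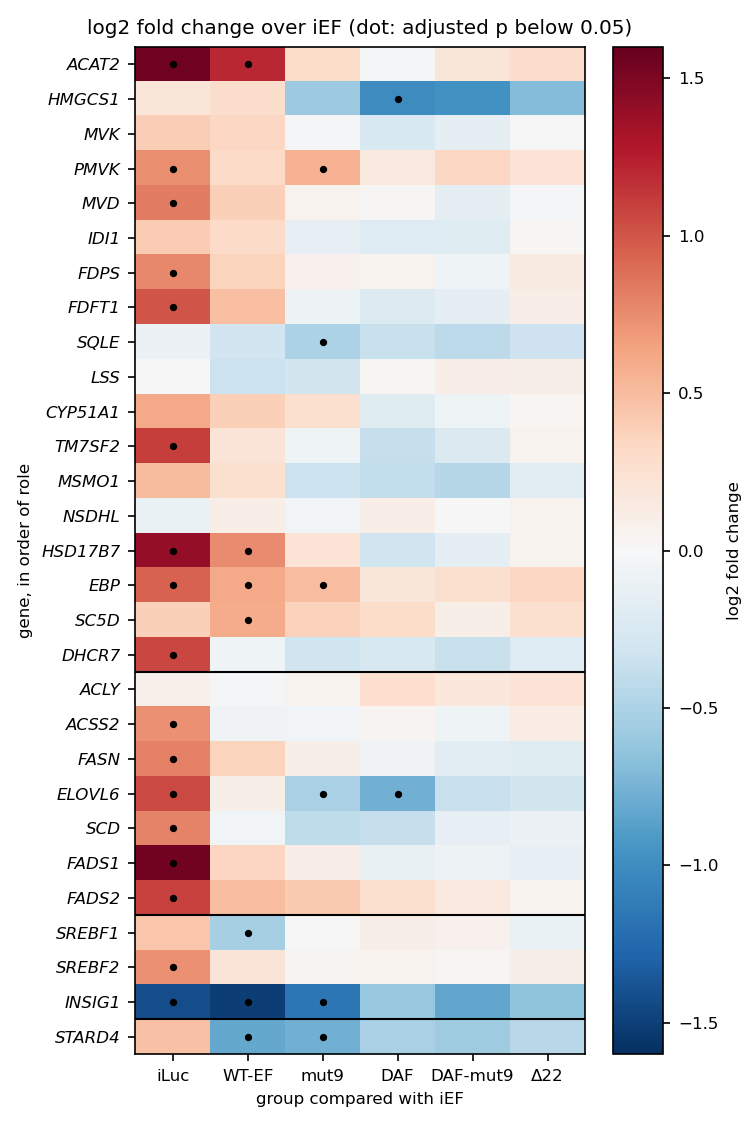
Log2 fold changes over iEF (colour, red higher and blue lower) of the 29 genes (rows, in order of role: cholesterol synthesis, fatty acid synthesis, regulators and sterol carrier) in the 6 other groups (columns), with a dot where the adjusted p-value was below 0.05. The iLuc column holds 17 dots, WT-EF 7, mut9 6, DAF 2, and DAF-mut9 and Δ22 0.

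Among the early steps, ACAT2, the cytosolic thiolase that joins acetyl-CoA into acetoacetyl-CoA (6:160183077-160200144 in hg19, ENSG00000120437), had the largest increase of the list. Its level was 132, 105 and 65.1 CPM in iLuc replicates 1 to 3 and 33.8, 42.9 and 24.7 CPM in iEF. All iLuc libraries lay above all iEF libraries, and the log2 fold change was 1.56 ± 0.18 (SE; adjusted p = 5.42e-07). HMGCS1, which makes HMG-CoA, was at 138, 162 and 68.2 CPM in iLuc and at 55.2, 92.7 and 168 CPM in iEF. The groups overlapped widely and HMGCS1 was not called (log2 fold change 0.19, adjusted p = 0.656). Of the next enzymes, the phosphorylating PMVK rose with a log2 fold change of 0.74, the decarboxylase MVD with 0.82, and FDPS, which makes farnesyl diphosphate, with 0.77. MVK (0.39, adjusted p = 0.227) and the isomerase IDI1 (0.41, adjusted p = 0.0605) did not pass the test.

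The sterol-specific part of the pathway split between genes that rose and genes that did not. FDFT1, squalene synthase, which commits farnesyl diphosphate to sterols, was at 237, 227 and 103 CPM in iLuc and at 72.5, 142 and 70.6 CPM in iEF. Its iLuc replicate 3 lay within the iEF range, and the log2 fold change was 1.00 ± 0.23 (adjusted p = 0.00134). Of the enzymes that follow, 5 were not called, with log2 fold changes of −0.089 for SQLE, 0.0085 for LSS (lanosterol synthase), 0.60 for CYP51A1, 0.50 for MSMO1 (the C4 methyl sterol oxidase) and −0.11 for NSDHL (a sterol dehydrogenase). SQLE was at 143, 173 and 134 CPM in iLuc and at 107, 203 and 173 CPM in iEF, and LSS at 59.6, 65.4 and 39.2 CPM against 50.7, 65.2 and 46.7 CPM. For both SQLE and LSS the iLuc and iEF ranges overlapped. HSD17B7, a sterol ketoreductase (1:162760492-162782613, ENSG00000132196), was at 28.7, 29 and 22.3 CPM in iLuc and at 7.63, 11.7 and 10.7 CPM in iEF. Its groups were well apart, with a log2 fold change of 1.40 ± 0.17 (adjusted p = 1.07e-06). TM7SF2, a sterol C14 reductase, rose with 1.11, the isomerase EBP with 0.95, and DHCR7, the reductase that finishes cholesterol, with 1.07, all with iLuc and iEF libraries apart. SC5D, the desaturase before DHCR7, was not called (0.38, adjusted p = 0.0687).

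Fatty acid synthesis genes rose together, apart from the enzyme that supplies cytosolic acetyl-CoA from citrate. ACLY was at 188, 166 and 163 CPM in iLuc and at 172, 160 and 156 CPM in iEF, with a log2 fold change of 0.083 ± 0.094 (adjusted p = 0.526). FASN, the fatty acid synthase, was at 241, 192 and 166 CPM against 114, 134 and 95.2 CPM, with no overlap and a log2 fold change of 0.80 ± 0.14 (adjusted p = 6.06e-05). ELOVL6, which elongates palmitate, was at 50.1, 45 and 30.4 CPM against 18.3, 24.7 and 17.7 CPM (1.06 ± 0.17, adjusted p = 2.43e-05), again with no overlap. FADS1 (11:61567099-61596790, ENSG00000149485) was the most abundant of the listed transcripts in CPM, at 1112, 1111 and 630 CPM in iLuc and at 250, 590 and 209 CPM in iEF. The lowest iLuc library lay just above the highest iEF library, and FADS1 rose with 1.54 ± 0.24 (adjusted p = 2.03e-05). Its neighbour FADS2, the delta-6 desaturase, rose with 1.09, and SCD with 0.79. FADS1 and FADS2 share exon bases on opposite strands. ACSS2, which makes acetyl-CoA from acetate, rose with 0.73 (adjusted p = 0.0176), but this call was lost without iEF replicate 1, iLuc replicate 1 or iLuc replicate 2 (adjusted p = 0.129, 0.151 and 0.0811). FADS1, SCD and FADS2 together made up 45.1% of the summed mean CPM of the 29 genes in iLuc and 32.8% in iEF.

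The regulators did not move as one. SREBF2 was at 145, 183 and 84.7 CPM in iLuc and at 61.3, 129 and 62.7 CPM in iEF, so that iLuc replicate 3 lay below iEF replicate 2. SREBF2 rose with a log2 fold change of 0.73 ± 0.20 (adjusted p = 0.00617), and without iEF replicate 1 the change was 0.58 (adjusted p = 0.0506). SREBF1 was at 88, 119 and 78.2 CPM against 63, 107 and 47.5 CPM, and was not called (0.44 ± 0.18, adjusted p = 0.0621). INSIG1 (7:155089486-155101945, ENSG00000186480) was at 62.3, 82 and 36.7 CPM in iLuc and at 85.8, 213 and 182 CPM in iEF. Here the order was turned around, with all iLuc libraries below all iEF libraries, and INSIG1 fell by 1.42 ± 0.25 on the log2 scale (adjusted p = 0.000109). STARD4, a carrier that moves cholesterol between membranes, was at 165, 167 and 75.7 CPM in iLuc and at 60.6, 142 and 88 CPM in iEF. The groups overlapped and STARD4 was not called (0.47 ± 0.25, adjusted p = 0.136).

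**Figure D2:**
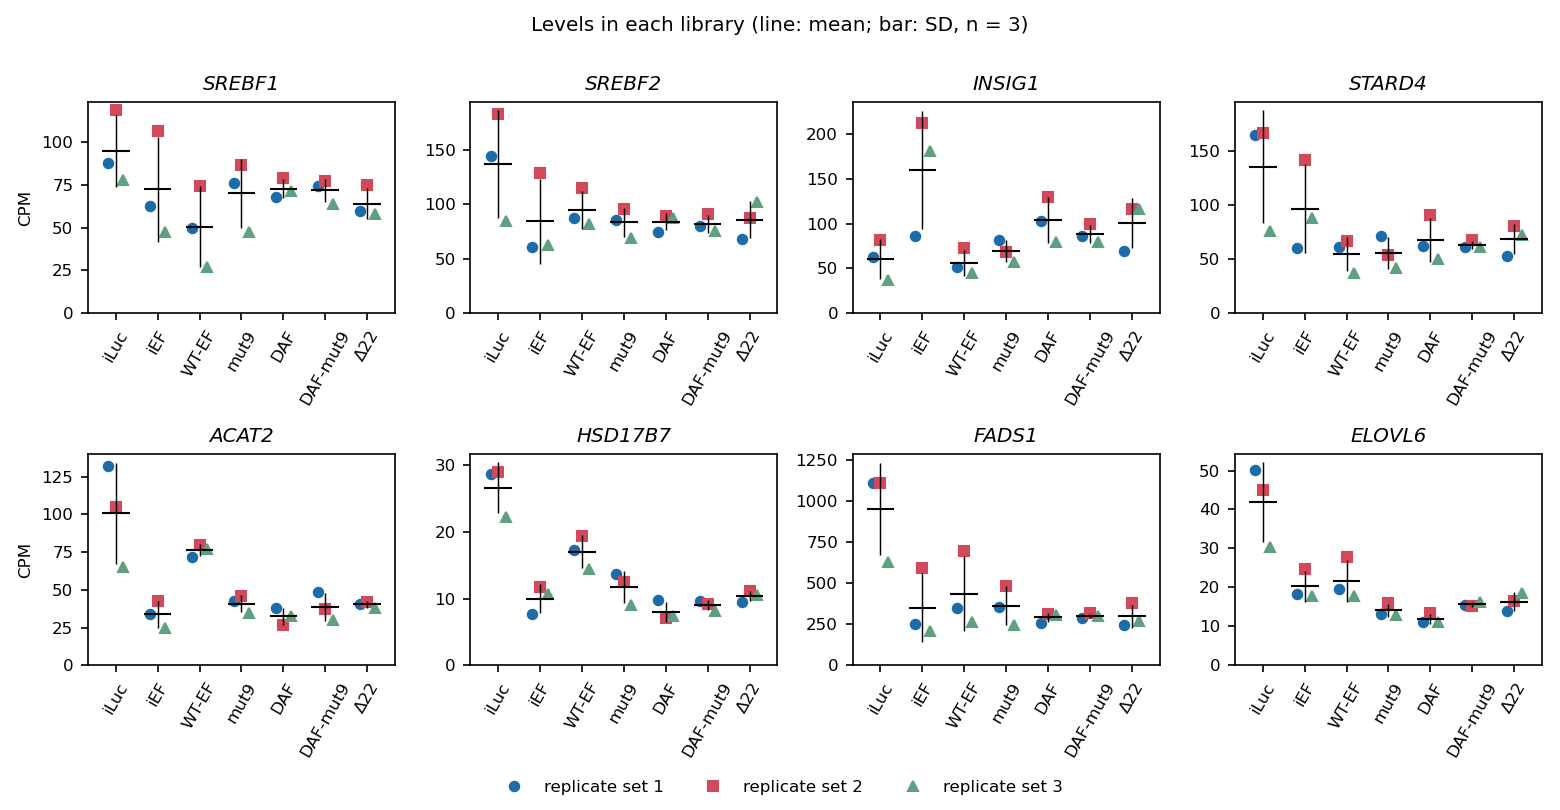
CPM (vertical axes, from 0) of 8 genes in the 21 libraries by group (horizontal axes), with 1 marker for each replicate set, a line at the mean and a bar of 1 SD (n = 3). By group mean, INSIG1 is highest in iEF, HSD17B7 and ACAT2 are high in iLuc and intermediate in WT-EF, and FADS1 and ELOVL6 are highest in iLuc.

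The listed genes varied between libraries of a group more than most genes did, and they varied together. Over the 27 listed genes with a mean of at least 5 CPM, the median coefficient of variation was 28.2% in iEF and 25.2% in iLuc, against 13.4% and 15.5% over 10752 other genes of that level. In DAF it was 9.49%, against 9.53% for the other genes. Replicate 2 was the highest iEF library for 24 of the 29 genes and the highest WT-EF library for 25, against 35.8% and 28.5% of other genes. In iLuc, replicate 3 was the lowest library for 28 of the 29 genes, against 45.6% of other genes. The summed level of the 18 cholesterol genes was 1310, 1380 and 808 CPM in iLuc and 599, 981 and 858 CPM in iEF, so that iLuc replicate 3 lay below 2 of the iEF libraries. The 7 fatty acid genes summed to 2432, 2408 and 1527 CPM in iLuc and to 846, 1586 and 773 CPM in iEF, so that iEF replicate 2 lay just above iLuc replicate 3.

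**Figure D3:**
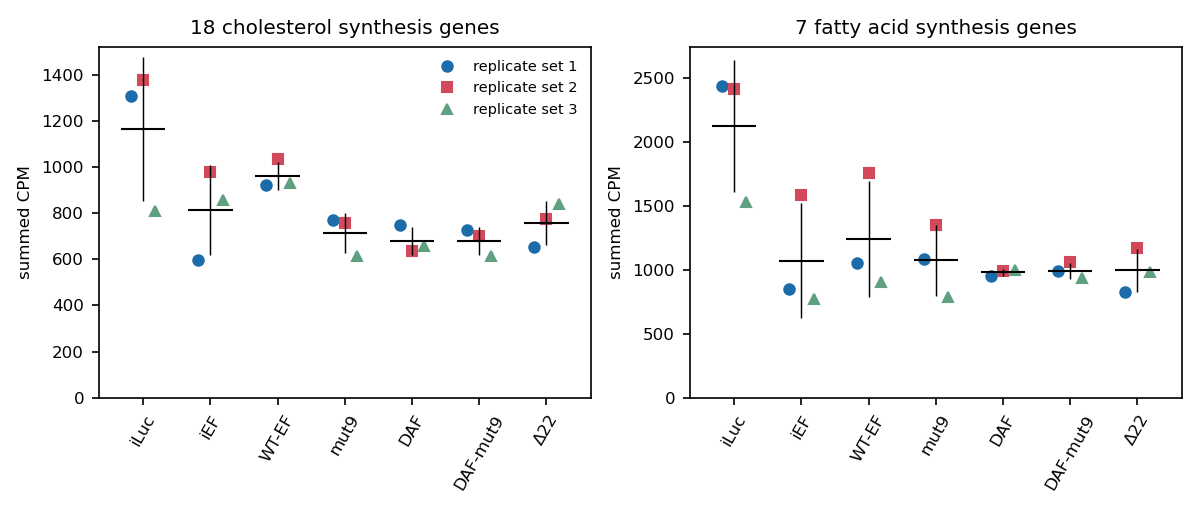
Summed CPM (vertical axes, from 0) of the 18 cholesterol synthesis genes and the 7 fatty acid synthesis genes in each library by group, with 1 marker for each replicate set, a line at the mean and a bar of 1 SD (n = 3). The iEF and iLuc libraries are widely spread, while the fatty acid sums of DAF run only from 949 to 998 CPM.

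Within replicate sets the median difference between iLuc and iEF was positive each time and changed its size. The median log2 ratio of the 29 genes was 1.27 in set 1, 0.57 in set 2 and 0.43 in set 3, with 28, 27 and 18 genes above 0, while the median over all genes lay between −0.028 and 0.0095. INSIG1 was lower in iLuc in each set, at ratios of 0.726, 0.385 and 0.201. HMGCS1 changed its direction between sets, with ratios of 2.5, 1.75 and 0.406. In set 3, 8 of the 18 cholesterol genes were lower in iLuc (HMGCS1, IDI1, SQLE, LSS, CYP51A1, MSMO1, NSDHL and SC5D), and their summed level was 808 CPM in iLuc against 858 CPM in iEF. ACAT2 ratios were 3.9, 2.44 and 2.64, those of HSD17B7 3.77, 2.48 and 2.08, and those of FADS1 4.45, 1.88 and 3.01. Without iLuc replicate 3, 21 genes rose and 1 fell, with CYP51A1, IDI1, MSMO1, SC5D and STARD4 added to the calls and none lost. Without iEF replicate 2, 18 rose and 1 fell, with MVK and SREBF1 added and none lost. What set these libraries apart was not tested.

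**Figure D4:**
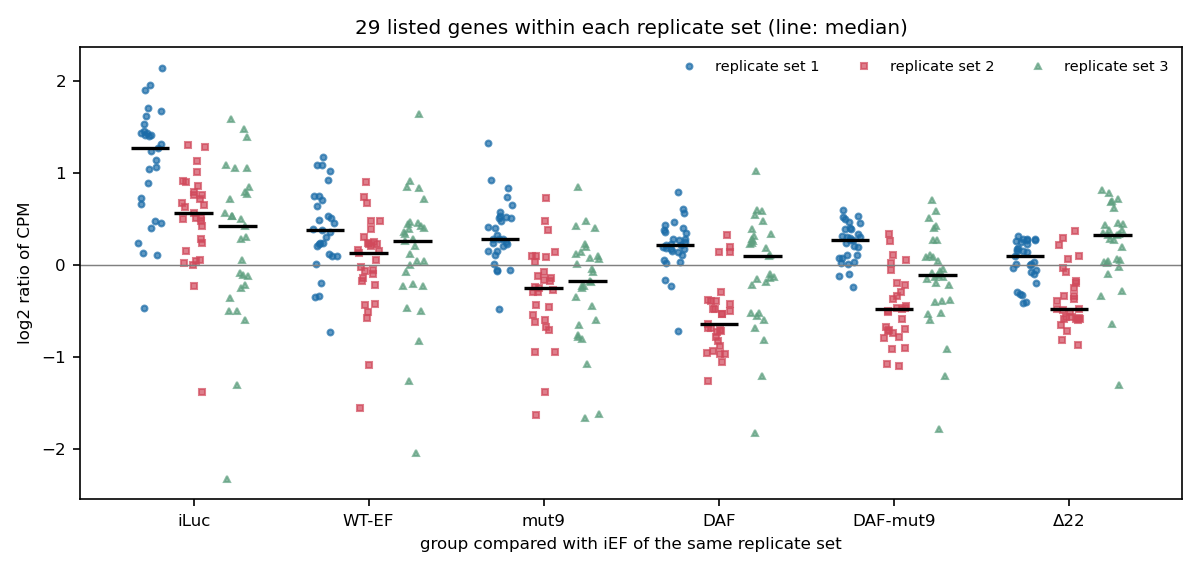
Log2 ratio of CPM over the iEF library of the same replicate set (vertical axis) for the 29 genes in 6 groups (horizontal axis), with colour and marker for the replicate set and a line at each median. The iLuc medians are 1.27, 0.57 and 0.43, and in DAF, DAF-mut9 and Δ22 the set 2 medians lie below 0, at −0.64, −0.48 and −0.48.

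The next question was how far a fusion supplied as cDNA restored this pattern. The comparisons of each construct with iEF share the 3 iEF libraries, so their values are given side by side and no overlap between them is counted. In WT-EF versus iEF, 4 of the 29 genes rose and 3 fell, against 11.4% and 16.9% of all genes tested, and the median log2 fold change was 0.28 (all genes, −0.0025). With limma on the ComBat-adjusted values 10 of the 29 rose and 1, INSIG1, fell, and the balance over all genes was turned, with 5998 higher and 3515 lower against 3470 and 5165 with edgeR. The genes that rose with edgeR were ACAT2, HSD17B7, EBP and SC5D. ACAT2 was at 71.8, 80 and 77.1 CPM in WT-EF, above all iEF libraries (log2 fold change 1.21 ± 0.18, adjusted p = 2.9e-05). HSD17B7 was at 17.3, 19.4 and 14.5 CPM (0.76 ± 0.17, adjusted p = 0.00189) and EBP at 28.4, 30.6 and 29.3 CPM against 20.6, 21.9 and 15.5 CPM in iEF (0.61 ± 0.14, adjusted p = 0.0026). Both groups of values stood apart from iEF. SC5D rose with 0.59 (adjusted p = 0.00938), but the call was lost without iEF replicate 1 (0.45, adjusted p = 0.0728). Of the 7 fatty acid genes 0 were called, with log2 fold changes between −0.06 and 0.49, and FASN was called higher with limma, with no low-count filter, with only WT-EF and iEF in the model, and without WT-EF replicate 1 or iEF replicate 2. FADS1 was at 350, 694 and 265 CPM in WT-EF, which overlapped the iEF libraries.

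Both sterol regulators with a call in WT-EF, and the sterol carrier, were lower than in iEF. INSIG1 was at 51.8, 72.6 and 44.3 CPM, below all iEF libraries, and fell by 1.51 ± 0.25 on the log2 scale (adjusted p = 0.000102). SREBF1 was at 50.1, 74.7 and 27 CPM and overlapped iEF (−0.53 ± 0.18, adjusted p = 0.0354). STARD4 was at 61.1, 66.5 and 36.7 CPM and also overlapped iEF (−0.82 ± 0.25, adjusted p = 0.0155). Both of these calls were lost when the replicate set was left out of the model (adjusted p = 0.213 and 0.0539) and with limma on the ComBat-adjusted values (adjusted p = 0.19 and 0.0638). SREBF1 was also lost without WT-EF replicate 1, WT-EF replicate 3 or iEF replicate 2. STARD4 was lost without WT-EF replicate 2, WT-EF replicate 3, iEF replicate 2 or iEF replicate 3, with adjusted p between 0.0552 and 0.0983. SREBF2 was at 87.1, 115 and 82.3 CPM and was not called (0.21, adjusted p = 0.491). Without iEF replicate 2, 8 of the 29 genes rose and 1 fell, with FADS1, FADS2, FASN and FDFT1 added. The same 4 genes were added when only WT-EF and iEF entered the model.

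WT-EF was then set against iLuc, which asks where levels with the cDNA differed from those with the endogenous fusion. In this comparison 0 of the 29 genes were higher in WT-EF and 10 were lower, against 9.78% and 8.52% of all genes tested, with a median log2 fold change of −0.43 (all genes, 0.019). STARD4 had the largest difference, at −1.30 ± 0.25 (adjusted p = 0.000738), with all WT-EF libraries below all iLuc libraries. FADS1 followed at −1.20 ± 0.24 (adjusted p = 0.000938), although WT-EF replicate 2, at 694 CPM, lay above iLuc replicate 3, at 630 CPM. DHCR7 was at 23.2, 30.8 and 24 CPM in WT-EF and at 58.4, 69.8 and 44.3 CPM in iLuc (−1.14 ± 0.19, adjusted p = 0.000173). SREBF1 was lower by −0.97 ± 0.19 (adjusted p = 0.000735), and ELOVL6 by −0.96 ± 0.17 (adjusted p = 0.000258). The other lower genes were TM7SF2 (−0.91), SCD (−0.83), ACSS2 (−0.79), HSD17B7 (−0.64) and FASN (−0.45). STARD4 and SREBF1 were not called in iLuc versus iEF (0.47 and 0.44), and WT-EF was below iEF for both (−0.82 and −0.53). For STARD4 and SREBF1 the difference from iLuc is therefore not only a lack of restoration. INSIG1 was not called, with a log2 difference of −0.089 ± 0.25 (adjusted p = 0.873). Within replicate sets the median log2 ratio was −0.73, −0.51 and −0.04, and without iLuc replicate 3 the number of lower genes was 17. Without WT-EF replicate 1, WT-EF replicate 3 or iLuc replicate 1 it was 6, and in each case DHCR7, ELOVL6, FADS1, SREBF1 and STARD4 were among them.

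For mut9, which keeps a short EWS domain, 2 of the 29 genes rose and 4 fell over iEF, against 6.22% and 8.33% of all genes tested, and the median log2 fold change was −0.017 (all genes, 0.022). INSIG1 was at 82.2, 68.8 and 57.7 CPM, below all iEF libraries although only just below iEF replicate 1, and fell by 1.16 ± 0.25 on the log2 scale (adjusted p = 0.00281). This call was kept without any 1 library of the 2 groups and in every other model run. EBP, at 25.2, 28.5 and 27.8 CPM, rose with 0.49 (adjusted p = 0.0224) and PMVK with 0.56 (adjusted p = 0.0466). STARD4 was at 71.3, 54.3 and 41.8 CPM (−0.77, adjusted p = 0.0415), ELOVL6 at 13.1, 16.1 and 13 CPM (−0.52, adjusted p = 0.0404), and SQLE fell with −0.51 (adjusted p = 0.0268). Each of these 5 calls was lost without mut9 replicate 2, without mut9 replicate 3 or without iEF replicate 3, which left INSIG1 as the 1 call. ELOVL6, PMVK and STARD4 were lost when the replicate set was left out of the model (adjusted p = 0.0779, 0.051 and 0.102). The per-library levels of SREBF1 were 76.4, 86.9 and 47.8 CPM and those of SREBF2 85.5, 96.2 and 69.3 CPM, and neither was called.

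Between mut9 and WT-EF, 0 of the 29 genes were higher and 2 were lower in mut9, against 4.95% and 1.2% of all genes tested, with a median log2 fold change of −0.22 (all genes, 0.049). ACAT2 was at 42.6, 45.7 and 34.4 CPM in mut9, below all WT-EF libraries, with a log2 difference of −0.92 ± 0.18 (adjusted p = 0.00303). ELOVL6 differed by −0.61 ± 0.17 (adjusted p = 0.0298), a call lost with no replicate set in the model and without any of WT-EF replicate 2 or the 3 mut9 libraries. HMGCS1, with 3 mut9 libraries below the 3 WT-EF libraries, was not called (−0.85, adjusted p = 0.104). When the model held only these groups, 14 genes were called, 13 of them lower in mut9. Calls over all genes also grew in that model, to 3053 higher and 2058 lower, against 1511 and 367.

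The DAF fusion was next set against iEF. Of the 29 genes 0 rose in DAF and 2 fell, against 3.41% and 4.02% of all genes tested, with a median log2 fold change of −0.12 (all genes, −0.033). ELOVL6 was at 11.1, 13.4 and 11 CPM in DAF, below all iEF libraries, and fell by 0.77 ± 0.17 on the log2 scale (adjusted p = 0.00631). HMGCS1 was at 62.4, 48.1 and 47.7 CPM (−1.01 ± 0.30, adjusted p = 0.0465), but overlapped iEF, and the call was lost without any of the 3 DAF libraries and without iEF replicate 3, where the change was −0.35 (adjusted p = 0.504). INSIG1 was at 103, 130 and 79.5 CPM in DAF, STARD4 at 62.1, 90.6 and 50.3 CPM, SREBF1 at 68, 79.3 and 71.7 CPM and SREBF2 at 74.9, 89.6 and 87.6 CPM. All 4 overlapped iEF and none was called. Without iEF replicate 1 the count was 5, with INSIG1, STARD4 and SQLE added as lower, and INSIG1 and STARD4 were also called lower with no low-count filter. Within replicate sets the median log2 ratio over the 29 genes was 0.22, −0.64 and 0.10, the set 2 value being the one against the high iEF library.

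Set against WT-EF, DAF had 3 listed genes higher and 8 lower, against 14.3% and 10.6% of all genes tested, with a median log2 fold change of −0.33 (all genes, −0.035). HMGCS1 differed most, at −1.28 ± 0.30 (adjusted p = 0.00308), with 117, 148 and 122 CPM in WT-EF. ACAT2 followed at −1.24 ± 0.18 (adjusted p = 2.74e-05), with 38.3, 26.8 and 32.4 CPM in DAF. HSD17B7 differed by −1.08 ± 0.17 (adjusted p = 8.04e-05), with 9.77, 7.02 and 7.35 CPM in DAF. In all 3 genes the libraries of the 2 groups were apart. ELOVL6 (−0.86), FDFT1 (−0.69), IDI1 (−0.52), EBP (−0.42) and FASN (−0.41) were also lower, and INSIG1 (0.90 ± 0.25, adjusted p = 0.0109), SREBF1 (0.63) and ACLY (0.30) were higher. INSIG1 was lost without DAF replicate 1 or WT-EF replicate 3. SREBF1 was lost without DAF replicate 3 or WT-EF replicate 3, with no replicate set in the model and with limma. ACLY was lost with limma, with no low-count filter and without any of DAF replicates 1 to 3 or WT-EF replicates 1 and 2. With limma 1 listed gene was higher and 14 were lower, and over all genes 3043 were higher and 6388 lower, against 4374 and 3241 with edgeR. The count of 11 fell to 5 without WT-EF replicate 3 and to 7 without DAF replicate 1, DAF replicate 2 or WT-EF replicate 2, and ACAT2, ELOVL6, HMGCS1 and HSD17B7 were called in each of these. It was 19 when only the 2 groups entered the model, where calls over all genes were 8855, against 7615 with all groups.

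DAF-mut9 and Δ22, the fusions with the least of the EWS domain or its tyrosines, had no call among the listed genes over iEF. In DAF-mut9 versus iEF 0 of the 29 genes were called by edgeR, against 3.4% of all genes in either direction. At an unadjusted p-value below 0.05 there were 5, DESeq2 called 2 (HMGCS1 and INSIG1, both lower) and limma on the ComBat-adjusted values called 0. In Δ22 versus iEF 0 of the 29 were called by edgeR, against 2.67% of all genes in either direction, with 5 at an unadjusted p-value below 0.05 and 0 by DESeq2 or limma. The median log2 fold change of the 29 genes was −0.13 in DAF-mut9 (all genes, −0.017) and 0.026 in Δ22 (all genes, −0.0024). INSIG1 was at 86.6, 99.4 and 79.6 CPM in DAF-mut9 and at 69.1, 117 and 117 CPM in Δ22, with log2 fold changes of −0.83 ± 0.25 (adjusted p = 0.074) and −0.64 ± 0.25 (adjusted p = 0.214). STARD4 was at 61.2, 67.7 and 61.3 CPM in DAF-mut9 and at 52.9, 80.7 and 72.7 CPM in Δ22. Its log2 fold changes over iEF were −0.57 in DAF-mut9, −0.45 in Δ22 and −0.52 in DAF, none of them called, against −0.82 in WT-EF and −0.77 in mut9. Between WT-EF and Δ22 STARD4 differed by −0.37 and was not called, so lower STARD4 was not particular to WT-EF and mut9. SREBF1 was at 74.5, 77.2 and 64.1 CPM in DAF-mut9 and at 59.8, 74.8 and 57.9 CPM in Δ22, and SREBF2 at 80.1, 91.2 and 75.4 CPM and at 67.8, 87.9 and 102 CPM. Without iEF replicate 1, the library with the lowest INSIG1, 4 genes were called in DAF-mut9 (HMGCS1, INSIG1, SQLE and STARD4) and 3 in Δ22 (HMGCS1, INSIG1 and SQLE), all lower.

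The remaining pairs compared constructs with each other. In DAF versus Δ22 0 of the 29 genes were called by edgeR, against 0.972% of all genes in either direction, and in DAF-mut9 versus mut9 also 0, against 9.83%. At an unadjusted p-value below 0.05 each had 2, DESeq2 and limma called 0 in both, and the largest log2 differences were −0.47 (ELOVL6, DAF versus Δ22, adjusted p = 0.318) and 0.40 (LSS, DAF-mut9 versus mut9, adjusted p = 0.104). In WT-EF versus Δ22, 4 genes were higher and 2 lower, against 10.7% and 14.5% of all genes, with a median log2 fold change of 0.28 (all genes, −0.00057). HMGCS1 (0.97, adjusted p = 0.0195), ACAT2 (0.93, adjusted p = 0.0005), HSD17B7 (0.70, adjusted p = 0.00399) and FASN (0.55, adjusted p = 0.00416) were higher in WT-EF. INSIG1 (−0.87, adjusted p = 0.0133) and LSS (−0.43, adjusted p = 0.0375) were lower. ACAT2, HSD17B7 and FASN were called without any 1 of the 6 libraries. HMGCS1 was lost without WT-EF replicate 2, WT-EF replicate 3, Δ22 replicate 1 or Δ22 replicate 2, and INSIG1 without WT-EF replicate 3 or Δ22 replicate 3. LSS was lost without any 1 WT-EF library, without Δ22 replicate 3 and with no replicate set in the model. With limma both lower calls were lost and 9 genes were higher, and over all genes 5670 were higher and 3299 lower, against 3261 and 4442 with edgeR. Without WT-EF replicate 3 the count fell to 3, and with only these groups in the model it was 15. In that model calls over all genes were 8739, against 7703 with all groups.

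Genes around the pathway were grouped in 5 further lists. Of 13 regulators of SREBP processing and sterol sensing, 1 rose and 3 fell in iLuc versus iEF, near or below the shares of all genes (18.7% and 22.4%), and 2 rose and 3 fell in WT-EF (11.4% and 16.9%). TMEM97, a sterol-regulated protein that binds the cholesterol exporter NPC1, was at 38.3, 44 and 72.9 CPM in iLuc and at 20.8, 15.6 and 19 CPM in iEF, and rose with a log2 fold change of 1.46 ± 0.19 (adjusted p = 2.01e-06). TMEM97 was called in WT-EF too, with a log2 fold change of 0.99 (adjusted p = 0.00035).

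Of 10 genes of sterol export, storage and uptake, 2 rose and 5 fell in iLuc (18.7% and 22.4% of all genes), and 1 rose and 7 fell in WT-EF (11.4% and 16.9% of all genes). ABCA1, which exports cholesterol from the cell and is a target of the sterol-sensing LXR receptors, was at 2.57, 6.98 and 2 CPM in iLuc and at 85.3, 83 and 95.2 CPM in iEF. It fell by 4.74 ± 0.37 on the log2 scale (adjusted p = 1.58e-09). In WT-EF it was at 6.37, 9.72 and 2.26 CPM (−4.06 ± 0.36, adjusted p = 3.08e-08), and in mut9 at 30.1, 30.9 and 24.3 CPM (−1.69 ± 0.32, adjusted p = 0.000774). In DAF it was at 68.5, 182 and 67 CPM, in DAF-mut9 at 50.8, 78.5 and 55.9 CPM and in Δ22 at 53.9, 105 and 29.3 CPM, with no call. The listed genes themselves had log2 fold changes over iEF between −1.51 and 1.56 in all groups. NPC2 and SOAT1, which act in lysosomal release and in esterification of cholesterol, fell in iLuc by 1.01 and 0.80 on the log2 scale, and the lipoprotein receptor SCARB1 rose with 0.78.

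Of 17 genes of fatty acid supply, elongation and glycerolipid synthesis, 7 rose and 3 fell in iLuc (18.7% and 22.4% of all genes), and 1 rose and 5 fell in WT-EF (11.4% and 16.9% of all genes). ACACB, the acetyl-CoA carboxylase of the mitochondrial surface, was at 9.76, 8.49 and 9.2 CPM in iLuc and at 3.01, 3.13 and 3.27 CPM in iEF (1.55 ± 0.23, adjusted p = 1.43e-05), and it also rose in WT-EF (1.52) and mut9 (1.18). ACSL1, which activates fatty acids for metabolism, was at 4.24, 7.03 and 6.11 CPM in iLuc and at 21.3, 19.5 and 28.2 CPM in iEF, and fell by 1.98 ± 0.16 on the log2 scale (adjusted p = 2.64e-09). ACSL1 was also lower in WT-EF (−1.01), mut9 (−0.59), DAF (−0.78), DAF-mut9 (−0.79) and Δ22 (−0.71), each with an adjusted p-value below 0.05. MLXIPL, a glucose-responsive activator of lipid synthesis, was at 6.5, 10 and 4.18 CPM in iLuc, and its means in the other 6 groups lay between 0.347 and 1.57 CPM (3.10 ± 0.30 for iLuc versus iEF, adjusted p = 3.02e-08).

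Of 14 genes of fatty acid oxidation, 2 rose and 2 fell in iLuc (18.7% and 22.4% of all genes), and 2 rose and 3 fell in WT-EF (11.4% and 16.9% of all genes), which is near or below the shares of all genes. PPARA, the receptor that drives this programme, was at 6.09, 10.3 and 3.11 CPM in iLuc and at 21.5, 37.9 and 21.3 CPM in iEF, and fell by 2.08 ± 0.25 on the log2 scale (adjusted p = 8.25e-07). CPT1A, the gate to mitochondrial oxidation, was at 18.8, 33.1 and 17.6 CPM against 76.6, 52.9 and 78.8 CPM, and fell by 1.55 ± 0.25 (adjusted p = 2.82e-05). The 2 genes that rose were CPT1C, a neuronal relative of CPT1A, with 1.71 (adjusted p = 3.02e-06), and CPT2. PPARA also fell in WT-EF (−1.68, adjusted p = 2.36e-05), and CPT1C and CPT2 rose there as well. Of 9 genes of the isoprenoid branch, which leads from farnesyl diphosphate to ubiquinone, dolichol and prenylated proteins, 3 rose and 1 fell in both iLuc (18.7% and 22.4% of all genes) and WT-EF (11.4% and 16.9%). COQ2 and PDSS1, enzymes of ubiquinone synthesis, rose in iLuc with 0.94 and 0.72 and in WT-EF with 0.55 and 1.10. DHDDS, which makes dolichol precursors, fell by 0.46 and 0.30 on the log2 scale.

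In the other constructs calls over all genes were fewer (6.22% higher and 8.33% lower in mut9, 3.41% and 4.02% in DAF, and in either direction 3.4% in DAF-mut9 and 2.67% in Δ22), and so were calls in these lists. Over iEF, mut9 had 1 higher and 0 lower of the 13 SREBP regulators, 0 and 3 of the 10 sterol export genes, 1 and 0 of the 9 isoprenoid genes, 2 and 3 of the 17 fatty acid supply genes, and 1 and 0 of the 14 oxidation genes. DAF had no call among the SREBP regulators, 1 higher in each of the sterol export, isoprenoid and oxidation lists, and 2 lower in the fatty acid supply list. In DAF-mut9 and in Δ22, ACSL1 was the 1 call in the 5 lists.

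**Figure D5:**
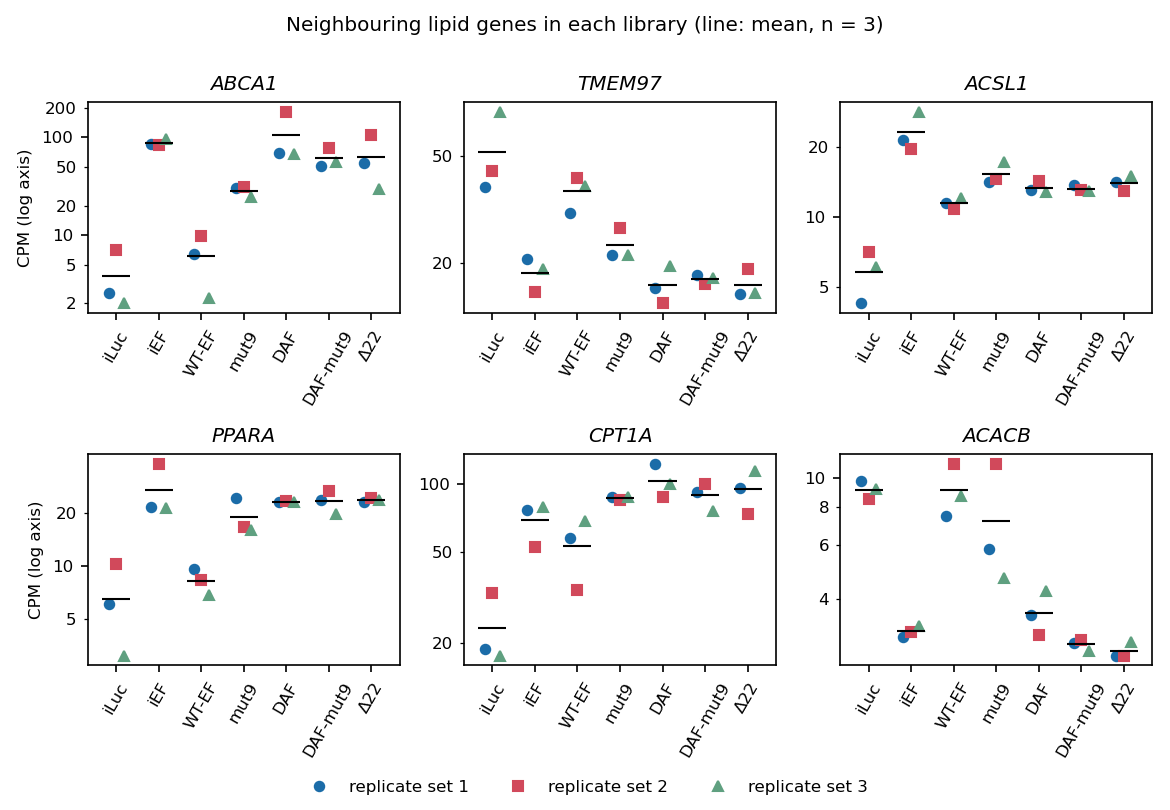
CPM (vertical axes, logarithmic) of 6 neighbouring lipid genes in the 21 libraries by group (horizontal axes), with 1 marker for each replicate set and a line at the mean (n = 3). ABCA1 means are 3.85 CPM in iLuc and 6.12 CPM in WT-EF, against 87.9 CPM in iEF and 106 CPM in DAF, and ACSL1 has its highest mean in iEF.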

How the data were processed

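RNA-seq was made from A673 cells in 7 groups of 3 libraries, grouped by their labels. The column name mut9d was taken to mean DAF-mut9. Per the study's methods and processing notes, the authors aligned paired-end reads to hg19 with STAR (notes: 2.5.1b) and counted reads per gene with htseq-count (intersection-strict). Which annotation and which strand option they used is not given in the sources used here. The authors deposited raw counts per Ensembl gene and ComBat-adjusted values, a signal not scaled for library size. Their table of comparisons (fold changes and p-values) was not used.

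Genes were tested with edgeR 4.0.16 (TMM, quasi-likelihood, terms for group and replicate set, all 21 libraries, 12 residual degrees of freedom, R 4.3.3) where the mean was at least 1 count per library, with Benjamini-Hochberg adjustment over 30549 genes and a call at 0.05. The replicate set was a term because the study adjusted for it. Over 10779 genes, deviations from group means of same-numbered libraries correlated with a median of 0.1605 over 63 pairs, 43 of them above 0.1. The median over 126 pairs with different numbers was −0.0953. Deviations cancel within a group, so a positive value for same numbers pushes the other value below it. The negative median is thus no independent contrast, and the pairing rests on the study's adjustment and not on every pair. The labels do not say what separates replicates, and the study describes them as replicate KD/rescue experiments. The p-values thus measure the spread between these libraries of 1 cell line. Alternatives were DESeq2 1.42.0, limma 3.58.1 on the adjusted values, and fits with RLE scaling, other low-count filters, no replicate set, only the groups compared, a 2-fold requirement, and each library left out. For limma the adjusted values were divided by library totals without TMM, and log2 was taken after adding 0.5. Its model held terms for group only. Over 26173 genes in both fits, the median log2 fold change in WT-EF versus iEF was 0.0191 with edgeR and 0.072 with limma. In DAF versus WT-EF these medians were −0.0427 and −0.0917. The part of this scaling in the limma calls was not tested. Totals of 32.9 to 46.2 M counts limit precision mainly for CYP51A1, with an SE of 0.38 in iLuc versus iEF. PMVK had the next lowest mean count of the list, at 149, but its SE there was 0.18, against 0.30 for HMGCS1 with a mean count of 3374. Standard errors are from the model, and per-set ratios are of CPM. The script was tested on simulated counts.

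Members and lists were chosen with earlier results of these data known. Values are given in every library for SREBF1, SREBF2, INSIG1, STARD4 and, in each comparison with iEF, for up to 3 called listed genes each way with the largest change and a mean of at least 5 CPM. From other lists up to 2 each way were eligible. Other named members were chosen after their values were seen, as was MLXIPL. Gene places are from GENCODE lifted to GRCh37, and promoters are from RefSeq.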

Additional observations from a re-analysis of the deposited data

How the results depend on the processing

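Of 32 gene calls over iEF, all kept their direction under every alternative, and DESeq2 and filterByExpr each kept 32, RLE scaling 31, no low-count filter 31, no replicate block 27, the adjusted values with limma 26, only the compared groups 24 and the 2-fold requirement 12. In iLuc versus iEF the 17 calls became 8 with the 2-fold requirement, and PMVK and ACSS2 were lost with only these groups in the model. In WT-EF versus iEF the 7 calls became 11 with no low-count filter, with only the compared groups and with limma, and 2 with the 2-fold requirement. Limma also moved the balance of calls over all genes in mut9 versus iEF (2403 higher and 1896 lower, against 1901 and 2544) and in mut9 versus WT-EF (1002 and 1403, against 1511 and 367), in DAF-mut9 versus mut9 (1270 and 2116, against 1572 and 1431) and in DAF versus Δ22 (189 and 79, against 241 and 56), over 26325 genes in place of 30549. In mut9 versus iEF the 6 became 3 with no replicate block and with limma, and 1 with only the compared groups and with the 2-fold requirement. In DAF versus iEF the 2 became 6 with no low-count filter, and 1 with only the compared groups, with limma and with the 2-fold requirement. In DAF-mut9 versus iEF the 0 became 2 with DESeq2 and 5 with no low-count filter, and in Δ22 versus iEF 3 with no low-count filter and 1 with only the compared groups. In WT-EF versus iLuc the 10 became 3 with the 2-fold requirement. In mut9 versus WT-EF the 2 became 4 with DESeq2, 1 with no replicate block, 9 with no low-count filter, 14 with only the compared groups and 0 with the 2-fold requirement. In DAF versus WT-EF the 11 became 19 with only the compared groups and 3 with the 2-fold requirement. In DAF-mut9 versus mut9 the 0 became 1 with no low-count filter, 1 with filterByExpr and 4 with only the compared groups. With only those groups, calls over all genes were 4849, against 3003. In WT-EF versus Δ22 the 6 became 13 with no low-count filter, 15 with only the compared groups and 0 with the 2-fold requirement. No replicate block also lost SCD in WT-EF versus iLuc, SREBF1 in DAF versus WT-EF and LSS in WT-EF versus Δ22. With 1 library left out, calls ran from 15 to 22 in iLuc versus iEF, 5 to 9 in WT-EF, 1 to 5 in mut9, 1 to 5 in DAF, 0 to 4 in DAF-mut9 and 0 to 3 in Δ22 versus iEF, 6 to 17 in WT-EF versus iLuc, 1 to 2 in mut9 versus WT-EF, 5 to 10 in DAF versus WT-EF, 0 to 0 in DAF-mut9 versus mut9 and in DAF versus Δ22, and 3 to 7 in WT-EF versus Δ22. Apart from the 2-fold requirement, which only tightens the call, and the filters, which change how many genes are tested, the cause was not tested. Depth limits CYP51A1 most.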
